A study of Mus musculus with 58 samples.

Results

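The transcripts described here are 8 genes of the female-enriched side of the sexually dimorphic core set: Ptpn5, P4ha3, Thsd4, Heph, Marcksl1, Spon2, Fbxw17 and Plekha6. They were measured in adipose stem cells (ASC) sorted from inguinal white adipose tissue (iWAT), a subcutaneous depot, of C57BL6/J mice. All 8 were found by symbol among the 56953 genes of the count table, and all 8 were among the 12464 genes that passed the low-count filter, which asks more than 3 libraries to hold 5 or more reads each. The 58 libraries compare castrated males and ovariectomized females, operated at 4 weeks of age, with control males and control females, and tissue was taken at 10 weeks of age. The sort gave DPP4- cells (ASC1) and DPP4+ cells (ASC2), both CD45-/CD31-/CD34+. In ASC1 there were 7 libraries labelled control male, 8 labelled castrated male, 8 labelled control female and 3 labelled ovariectomized female. In ASC2 each of these groups had 8 libraries. The labels name a sex, an operation and a population for each library, but not the mouse, and no sham operation is named for the controls, so the p-values measure the spread between libraries. The question the design puts to these genes is whether they differ between the sexes and whether removal of the gonads changes them.

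The products of these genes act in different places in a stromal cell. Ptpn5 encodes STEP, a tyrosine phosphatase best known from striatal neurons that dephosphorylates ERK and Src-family kinases. P4ha3 encodes a catalytic subunit of collagen prolyl 4-hydroxylase, Thsd4 an ADAMTS-like protein of fibrillin microfibrils, and Spon2 the secreted matrix protein mindin. Heph, on the X chromosome, encodes hephaestin, a copper-dependent ferroxidase that works with the iron exporter ferroportin. Marcksl1 encodes a membrane- and actin-binding relative of the protein kinase C substrate MARCKS, Plekha6 a pleckstrin homology protein of cell junctions, and Fbxw17 an F-box and WD repeat protein of the ubiquitin ligase family. Adipose stem cells are fibroblast-like cells that build matrix and give rise to adipocytes, and sex steroids act on them through nuclear receptors that bind DNA near target genes.

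The start regions of Ptpn5 and P4ha3, the members most alike across libraries, and of Fbxw17, the member whose windows held a receptor half-site, are shown. DNA farther from the start, where steroid receptors can also bind, was not searched. They are the 250 bases before the RefSeq start in build GRCm38.p6, 5′ to 3′ in the direction of transcription. The Ptpn5 window shown, the farther upstream of the 2 that RefSeq gives, is chr7:47133685-47133934 on the minus strand, the P4ha3 window chr7:100285270-100285519 on the plus strand and the Fbxw17 window chr13:50417614-50417863 on the plus strand. Capitals mark a match to the estrogen receptor half-site AGGTCA on either strand.
Ptpn5: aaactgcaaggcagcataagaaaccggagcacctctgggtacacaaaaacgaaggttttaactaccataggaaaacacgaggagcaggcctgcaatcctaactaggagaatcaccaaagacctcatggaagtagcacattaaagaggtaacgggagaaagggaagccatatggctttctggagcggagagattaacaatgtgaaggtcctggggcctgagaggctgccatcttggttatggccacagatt
P4ha3: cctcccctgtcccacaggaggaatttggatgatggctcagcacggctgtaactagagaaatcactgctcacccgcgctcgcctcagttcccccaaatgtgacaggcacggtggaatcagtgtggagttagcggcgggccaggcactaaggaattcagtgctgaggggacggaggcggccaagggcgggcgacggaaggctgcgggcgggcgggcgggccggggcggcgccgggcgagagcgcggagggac
Fbxw17: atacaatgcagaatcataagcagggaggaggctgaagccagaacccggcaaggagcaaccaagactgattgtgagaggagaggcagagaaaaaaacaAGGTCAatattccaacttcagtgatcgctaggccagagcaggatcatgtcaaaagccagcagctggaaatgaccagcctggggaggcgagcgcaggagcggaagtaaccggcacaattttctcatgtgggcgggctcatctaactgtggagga
The half-site AGGTCA occurred in 14% of 32851 promoter windows of this length, and 1 match lies in the Fbxw17 window. The windows shown for Ptpn5 and P4ha3, and the second Ptpn5 window, held no match to AGGTCA or to TATAAA (12.4% of windows). The full palindrome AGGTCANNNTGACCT occurred in 0.0213% of windows and in none of the members' windows. The androgen receptor half-site AGAACA occurred in 16.1% of windows and also in none of the members' windows. RefSeq windows were matched for 6 of the 8 members, the others being Heph and Spon2. A match is a string of letters and not evidence of binding.

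Sex chromosome reads went against the sex label in 27 of the 58 libraries. A library labelled male was counted as such where it had under 3 reads of the Y-linked genes Ddx3y, Eif2s3y, Uty and Kdm5d together or at least 20 reads of Xist, and a library labelled female where it had at least 3 Y reads. This held for 4 of 7 control male ASC1 libraries (E to H, with reads of both kinds), 5 of 8 control female ASC1 libraries (B, C, D, G and H, with Y reads only), all 8 castrated male ASC1 libraries (6 with Xist only, 1 with both and 1 under both cut-offs), 4 of 8 control male ASC2 libraries (E to H) and 6 of 8 control female ASC2 libraries (all but C and D). It held for 0 of 8 castrated male ASC2 libraries and 0 of 3 and 0 of 8 ovariectomized female libraries of ASC1 and ASC2. Control female ASC1 library A, which had 1 Y read and 2 Xist reads and so was under both cut-offs, counts as matching its label. Tcf21, a transcription factor known from visceral rather than subcutaneous fat, had at least 3 reads in 22 libraries: control male ASC1 B to D, control female ASC1 B, C, D, G and H, castrated male ASC1 K to P, control female ASC2 C and D, castrated male ASC2 I and J, and ovariectomized female ASC2 I to L. The paper describes Tbx15 as specific to iWAT. In castrated male ASC1 it was at 0 to 7.99 CPM in K to P, against 28.7 and 40.9 CPM in I and J. In control male ASC1, B to D held 0 to 6.26 CPM and E to H 26.05 to 35.75 CPM. In control female ASC1, B, C, D, G and H held 0 to 4.84 CPM, A 6.56 CPM, and E and F 22.5 and 32.1 CPM. In castrated male ASC2, I and J held 7.67 and 5.10 CPM and K to P 8.71 to 35.15 CPM. The depot of each library was not tested. C7, a complement gene of the male-enriched side of the core set, was at 122 to 337 CPM (reads scaled to the TMM-corrected library size) in control male ASC1 and 209 to 1664 CPM in control male ASC2, against at most 20.8 CPM in every library labelled control female, castrated male or ovariectomized female ASC2. The 3 ovariectomized female ASC1 libraries held 50.3, 105 and 284.5 CPM of it. In the following, each group is named by its label, and for the 8 members the comparisons are also given without the libraries at odds with it, where libraries of both groups remain.

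Library totals ranged from 106566 to 1421547 reads, with a median of 682423.5, so that counting error weighs most on the lowest members. Fibroblast markers (Pdgfra, Col1a1, Dcn, Lum) were present in every group, and Dpp4 was at 6.80 to 27.7 CPM on average in the ASC1 groups and at 91.9 to 248 CPM in the ASC2 groups. The ovariectomized female ASC1 libraries stand apart: totals of 1114334, 256565 and 188599 reads, summed fibroblast markers of 43100 to 45100 CPM against 4290 to 9140 CPM in the other ASC1 groups, and all 6 epithelial markers at 0. In sorted bulk samples, fewer cells of a type and less RNA per cell cannot be told apart.

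Ptpn5, the phosphatase, differed widely between libraries of one group. In control male ASC1 it ranged from 0 to 144 CPM (median 79.7, mean 66.1 ± 64.7 SD, n = 7), with 0, 0 and 1 reads in libraries B, C and D and 56 to 149 reads in E to H. Control female ASC1 had a median of 1.48 CPM and a range of 0 to 243 CPM (53.9 ± 87.2 SD, n = 8), with 0 to 2 reads in B, C, D, G and H and 37, 74 and 53 reads in A, E and F. Both control groups of ASC1 were thus split into a set near 0 and a set of at least 79.2 CPM. Castrated male ASC1 was not split, at 116 to 219.8 CPM (median 186, mean 173 ± 42.5 SD, n = 8). The 3 ovariectomized female ASC1 libraries held 1, 0 and 0 reads.

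In ASC2, Ptpn5 ranged from 2.23 to 101 CPM in control males (median 45.9, mean 51.0 ± 38.8 SD), from 17.4 to 213 CPM in control females (median 45.3, mean 83.8 ± 80.7 SD), from 0 to 71.8 CPM in castrated males (median 40.1, mean 35.7 ± 28.5 SD) and from 34.3 to 273.5 CPM in ovariectomized females (median 165.5, mean 167 ± 96.4 SD), each with n = 8. The order of the group means was ovariectomized female, control female, control male and castrated male, and every neighbour in that order overlapped with the next.

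**Figure D1:**
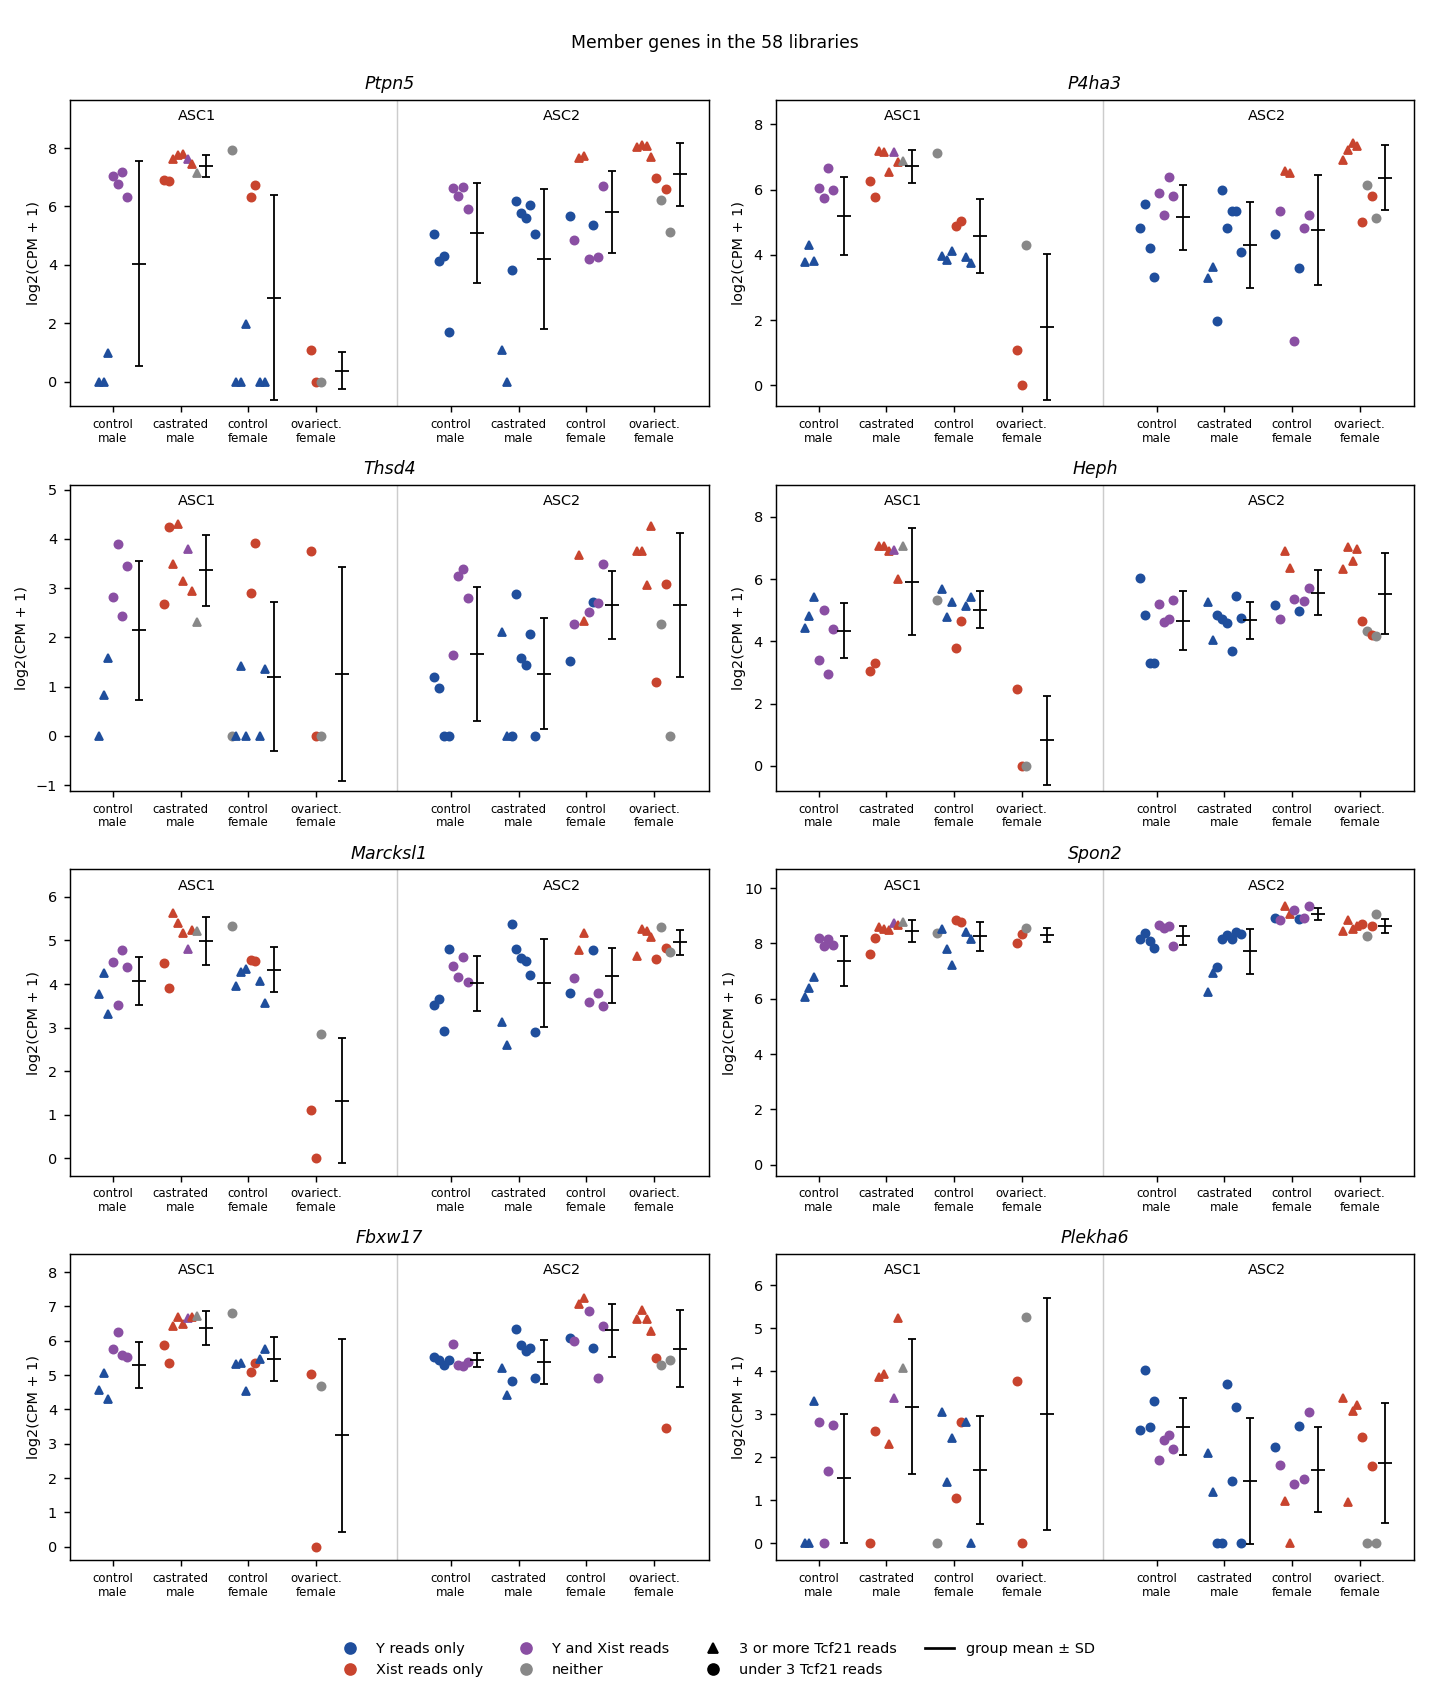
Each panel plots one member in the 58 libraries as log2(CPM + 1) by labelled group, ASC1 left and ASC2 right, with group mean ± SD beside the points. Colour gives the kind of sex chromosome reads and triangles mark at least 3 Tcf21 reads. Ptpn5 lies between 0 and 2.97 CPM in the 10 libraries with Y reads only and Tcf21 (blue triangles) and between 176 and 273.5 CPM in the 10 with Xist only and Tcf21 (red triangles). The share of all genes that separates these classes was not counted.

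Ptpn5 was also described by the sex chromosome and Tcf21 reads of each library. The 10 libraries with Y reads only and Tcf21 held 0 to 2.97 CPM (median 0), and the 12 with Y reads only and under 3 Tcf21 reads 2.23 to 71.8 CPM (median 36.5). The 12 libraries with both Y and Xist reads and under 3 Tcf21 reads held 17.4 to 144 CPM (median 89.0). Among libraries with Xist only, the 8 with under 3 Tcf21 reads held 0 to 124 CPM (median 101), where 0 and 1.14 CPM are ovariectomized female ASC1, and the 10 with Tcf21 held 176 to 273.5 CPM (median 215.5). The extremes, Y only and Xist only among Tcf21 libraries, did not overlap. The share of all genes that separates these classes was not counted. These classes were defined from reads in the same libraries and are given as a description with no test.

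P4ha3, the collagen hydroxylase subunit, was split in the controls of ASC1 as well. It ranged from 12.7 to 99.9 CPM in control male ASC1 (median 52.1, mean 46.4 ± 33.0 SD), from 12.5 to 138 CPM in control female ASC1 (median 15.4, mean 33.7 ± 42.7 SD) and from 53.6 to 143.5 CPM in castrated male ASC1 (median 114.5, mean 109.6 ± 33.6 SD). The ovariectomized female ASC1 libraries had 1, 0 and 3 reads. In ASC2 the means were 41.6 ± 24.2 CPM in control males, 40.4 ± 33.9 CPM in control females, 26.0 ± 20.1 CPM in castrated males and 98.3 ± 57.7 CPM in ovariectomized females (SD, n = 8 each). Among libraries with Tcf21, P4ha3 lay at 8.77 to 18.8 CPM in the 10 with Y reads only and at 89.6 to 170.5 CPM in the 10 with Xist only. These did not overlap, a separation not counted over all genes. The 3 samples of control male ASC1 with Y only held 12.7 to 18.8 CPM, and the 4 with both kinds of reads 52.1 to 99.9 CPM.

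Thsd4, the microfibril protein, was near the detection limit, with 0 to 14 reads per library and group means of 2.07 to 10.4 CPM. Its highest mean was in castrated male ASC1 (10.4 ± 5.57 CPM, SD, n = 8, range 3.99 to 18.6) and its lowest in castrated male ASC2 (2.07 ± 2.22 CPM, SD, n = 8, range 0 to 6.38). No read was found in 4 of 8 control female ASC1 libraries and 3 of 8 castrated male ASC2 libraries. Libraries with Y reads only held 0 to 6.38 CPM and libraries with Xist only 0 to 18.6 CPM, which overlap.

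Spon2, the matrix protein mindin, had the most reads of the members, 26 to 666 per library. In ASC1 it ranged from 66.2 to 291 CPM in control males (median 241, mean 189 ± 98.3 SD), from 148 to 456 CPM in control females (median 335, mean 322 ± 103 SD), from 194 to 435 CPM in castrated males (median 377, mean 359 ± 80.6 SD), and the 3 ovariectomized females had 258, 326 and 371.5 CPM. Control male B, C and D, at 66.2, 82.2 and 110.5 CPM, were the lowest of all ASC1 libraries. In ASC2 it ranged from 225 to 408 CPM in control males (median 308, mean 317 ± 72.2 SD), from 459.6 to 659 CPM in control females (median 506, mean 540.6 ± 82.1 SD), from 75.6 to 339 CPM in castrated males (median 283, mean 235 ± 105 SD) and from 304 to 539.6 CPM in ovariectomized females (median 398, mean 403 ± 72.8 SD). All 8 control female ASC2 libraries were above all 8 control male and all 8 castrated male ASC2 libraries.

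Heph, the ferroxidase, was low in the controls of ASC1 and high in most castrated male ASC1 libraries. It ranged from 6.66 to 41.8 CPM in control males (median 20.4, mean 22.4 ± 12.3 SD, n = 7), from 12.9 to 50.8 CPM in control females (median 35.4, mean 33.3 ± 11.9 SD) and from 7.18 to 133 CPM in castrated males (median 119, mean 89.3 ± 55.1 SD). Within the castrated group, libraries I and J, without Tcf21 reads, had 7.18 and 8.94 CPM, and K to P, with Tcf21 reads, 63.3 to 133 CPM. The ovariectomized female ASC1 libraries had 4, 0 and 0 reads. In ASC2 the means were 29.2 ± 18.1 CPM in control males, 52.4 ± 31.4 CPM in control females, 26.2 ± 10.3 CPM in castrated males and 63.1 ± 49.4 CPM in ovariectomized females, where I to L, with Tcf21, held 78.6 to 129.6 CPM and M to P 17.1 to 24.0 CPM. Over all groups, Heph was at 63.3 to 133 CPM in the 10 libraries with Xist only and Tcf21, at 0 to 24.1 CPM in the 8 with Xist only and under 3 Tcf21 reads and at 15.3 to 50.8 CPM in the 10 with Y only and Tcf21. The first of these 3 sets did not overlap with the others, and the share of all genes so separated was not counted. Heph is X-linked, so its level was also set beside Xist. Pearson's r over the 58 libraries was 0.07 with Xist, 0.63 with Tcf21 and -0.61 with Tbx15, all on the log2(CPM + 1) scale.

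**Figure D2:**
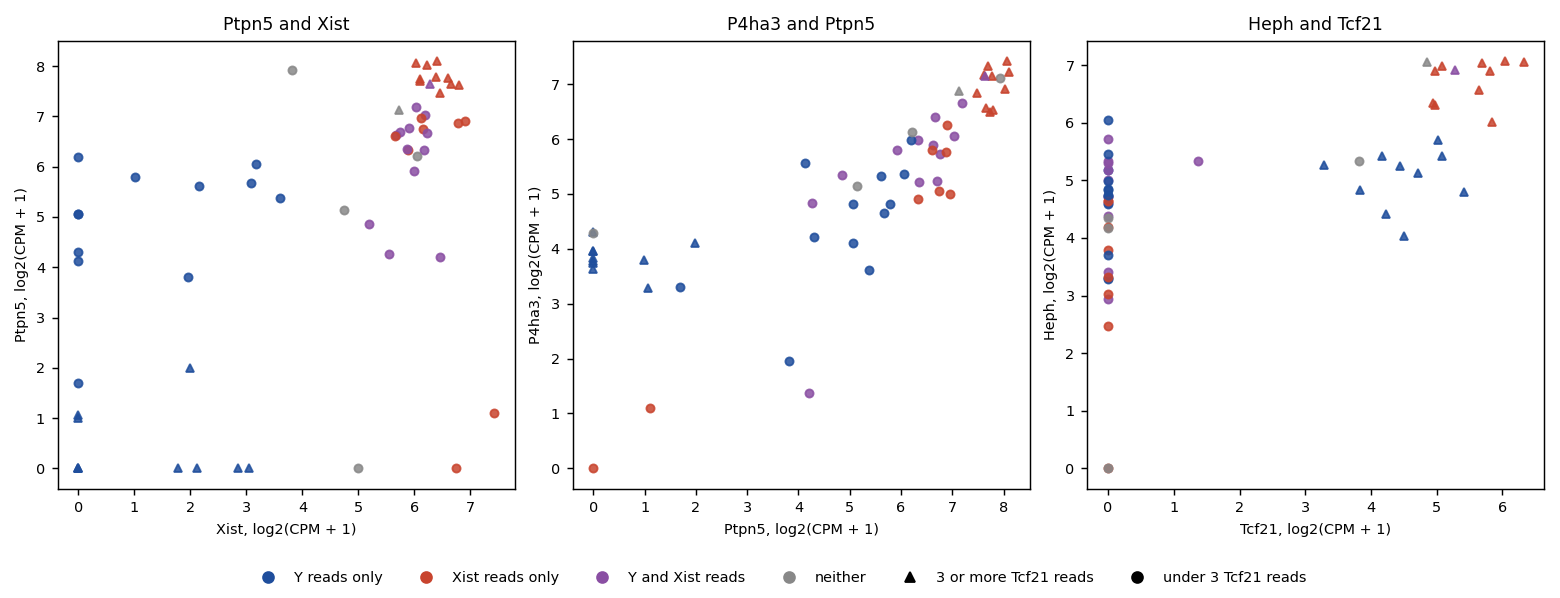
Each point is 1 of the 58 libraries, on log2(CPM + 1) axes: Ptpn5 against Xist, P4ha3 against Ptpn5 and Heph against Tcf21, coloured by sex chromosome reads, with triangles for at least 3 Tcf21 reads. The red triangles (Xist only, Tcf21 present) are at 176 to 273.5 CPM of Ptpn5 and 63.3 to 133 CPM of Heph, while the blue triangles (Y only, Tcf21 present) are at 0 to 2.97 CPM of Ptpn5 and 15.3 to 50.8 CPM of Heph. How many of all genes separate these classes was not counted.

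Fbxw17, the F-box protein, was at 18.9 to 74.7 CPM in control male ASC1 (median 45.5, mean 42.0 ± 19.2 SD), at 22.3 to 111.5 CPM in control female ASC1 (median 40.0, mean 47.8 ± 27.2 SD) and at 39.6 to 104 CPM in castrated male ASC1 (median 94.6, mean 85 ± 24 SD). The ovariectomized female ASC1 libraries had 28, 0 and 4 reads. In ASC2 it was at 37.8 to 58.6 CPM in control males (median 41.4, mean 43.0 ± 6.86 SD), at 29.3 to 151 CPM in control females (median 75.9, mean 87.4 ± 42.4 SD), at 20.4 to 79.8 CPM in castrated males (median 43.7, mean 44.6 ± 19.8 SD) and at 9.90 to 117 CPM in ovariectomized females (median 61.0, mean 65.9 ± 37.3 SD). Control male ASC2 was uniform in Fbxw17, with a coefficient of variation of 0.16 against 0.485 in control female ASC2, and the groups overlapped. Reads shared with other members of the FBXW family, or with processed copies in the case of Marcksl1, are divided between transcripts by the estimated counts, so the levels of these 2 genes carry that uncertainty.

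Marcksl1, the MARCKS relative, ranged over group means of 16.5 to 32.6 CPM outside ovariectomized female ASC1. The highest means were 32.6 ± 11.1 CPM in castrated male ASC1 (14.1 to 48.6, median 35.6) and 30.6 ± 6.34 CPM in ovariectomized female ASC2 (22.9 to 38.5, median 30.1). The control groups had 16.9 ± 6.48 CPM (male ASC1), 20.3 ± 8.61 CPM (female ASC1), 16.5 ± 6.90 CPM (male ASC2) and 19.0 ± 9.25 CPM (female ASC2). The ovariectomized female ASC1 libraries had 1, 0 and 1 reads. Plekha6, the junction protein, had 0 to 16 reads per library and group means of 2.95 to 16.6 CPM. Castrated male ASC1 held 0 to 36.6 CPM of it (median 11.5, mean 12.4 ± 11.3 SD), and the 3 ovariectomized female ASC1 libraries 12.6, 0 and 37.2 CPM from 11, 0 and 6 reads.

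Control females and control males were compared first, since the core set is defined by sex. In ASC1, 0 of the 8 members passed the edgeR test at an adjusted p below 0.05, against 0.289% of all genes tested, and 1 member, Spon2 (0.77 ± 0.25), had an unadjusted p below 0.05. DESeq2 called 0 members. Ptpn5 had a log2 fold change of -0.62 ± 0.79 (SE, 95% interval -2.17 to 0.93, edgeR adjusted p = 0.905). With the 3 control female and 3 control male libraries whose sex chromosome reads match the label, Ptpn5 was at 79.2, 106 and 243 CPM in females and at 0, 0 and 0.995 CPM in males, from 164 and 1 reads. The groups did not overlap, as for 5 of the 8 members and 16.8% of all genes in this subset, and the ratio of CPM was 277-fold (95% counting interval 49.0 to 11000). Ptpn5 then rose by 7.93 ± 1.33 on the fitted log2 scale, a value that depends on the prior count (edgeR adjusted p = 0.00182), and Spon2, at 328 to 456 against 66.2 to 110.5 CPM, rose by 2.24 ± 0.39 (adjusted p = 0.00182). Those 2 of 8 members stand beside 0.726% of all genes under that restriction. All 3 of these male libraries and none of these 3 female libraries had at least 3 Tcf21 reads, so by this cut-off sex and Tcf21 cannot be told apart in this subset. Female library A, with a total of 139825 reads, held 2 Tcf21 reads. That put it at 13.1 CPM of Tcf21, beside 13.3 to 17.8 CPM in the males, while female E and F held 0.

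In ASC2, 2 of 8 members were called higher in control females, against 6.5% of all genes called in either direction. Spon2 rose by 0.77 ± 0.24 (log2, edgeR adjusted p = 0.0391), and Fbxw17 rose by 1.02 ± 0.31 (edgeR adjusted p = 0.0351). The Spon2 groups did not overlap, a separation seen in 0.562% of all genes. Both calls lie near the threshold. With 1 of 16 libraries left out, the Spon2 value stayed at 0.74 to 0.86 and was not called in 6 cases (control female C or H, control male A, C, D or H, edgeR adjusted p 0.0507 to 0.0798), and the Fbxw17 value stayed at 0.90 to 1.17 and was not called in 6 cases (control female C, D or E, control male C, D or F, edgeR adjusted p 0.0552 to 0.0819). Fbxw17 also lost its call with the replicate block, with terms for Tcf21 or sex chromosome reads and without Tcf21 libraries (edgeR adjusted p at most 0.207). With only libraries that match the label, 2 female against 4 male, the call was Ptpn5 instead, against 2.59% of all genes. Ptpn5 was at 201 and 213 CPM in females and at 2.23, 16.4, 18.7 and 32.5 CPM in males and rose by 3.47 ± 0.77 (edgeR adjusted p = 0.0112). Spon2 was then at 1.07 ± 0.37 (adjusted p = 0.109) and Fbxw17 at 1.74 ± 0.54 (adjusted p = 0.0674). In this subset 7 of 8 members did not overlap between the groups, against 26.3% of all genes. Both of these females and none of the 4 males had at least 3 Tcf21 reads. The 3 mesothelial markers (Msln, Upk3b, Krt19), all present in both groups, summed to 50 to 214 CPM in the 8 control female ASC2 libraries and to 0 to 26.7 CPM in the 8 control male ones, without overlap, and the part of such cells in these results was not tested.

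The sex difference was also compared between the populations. With all libraries, 0 of 8 members had a different sex difference in ASC2 than in ASC1, against 0.128% of all genes, and with label-matching libraries again 0 of 8, against 0.532%. With all libraries, DESeq2 called 0 and 1 member, Fbxw17 (0.95 ± 0.46), had an unadjusted p below 0.05. For Ptpn5 the difference between the ASC2 and ASC1 values was 1.35 ± 1.06 with all libraries and -4.46 ± 1.77 with the matching ones (log2, edgeR adjusted p = 0.205 for the latter).

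**Figure D3:**
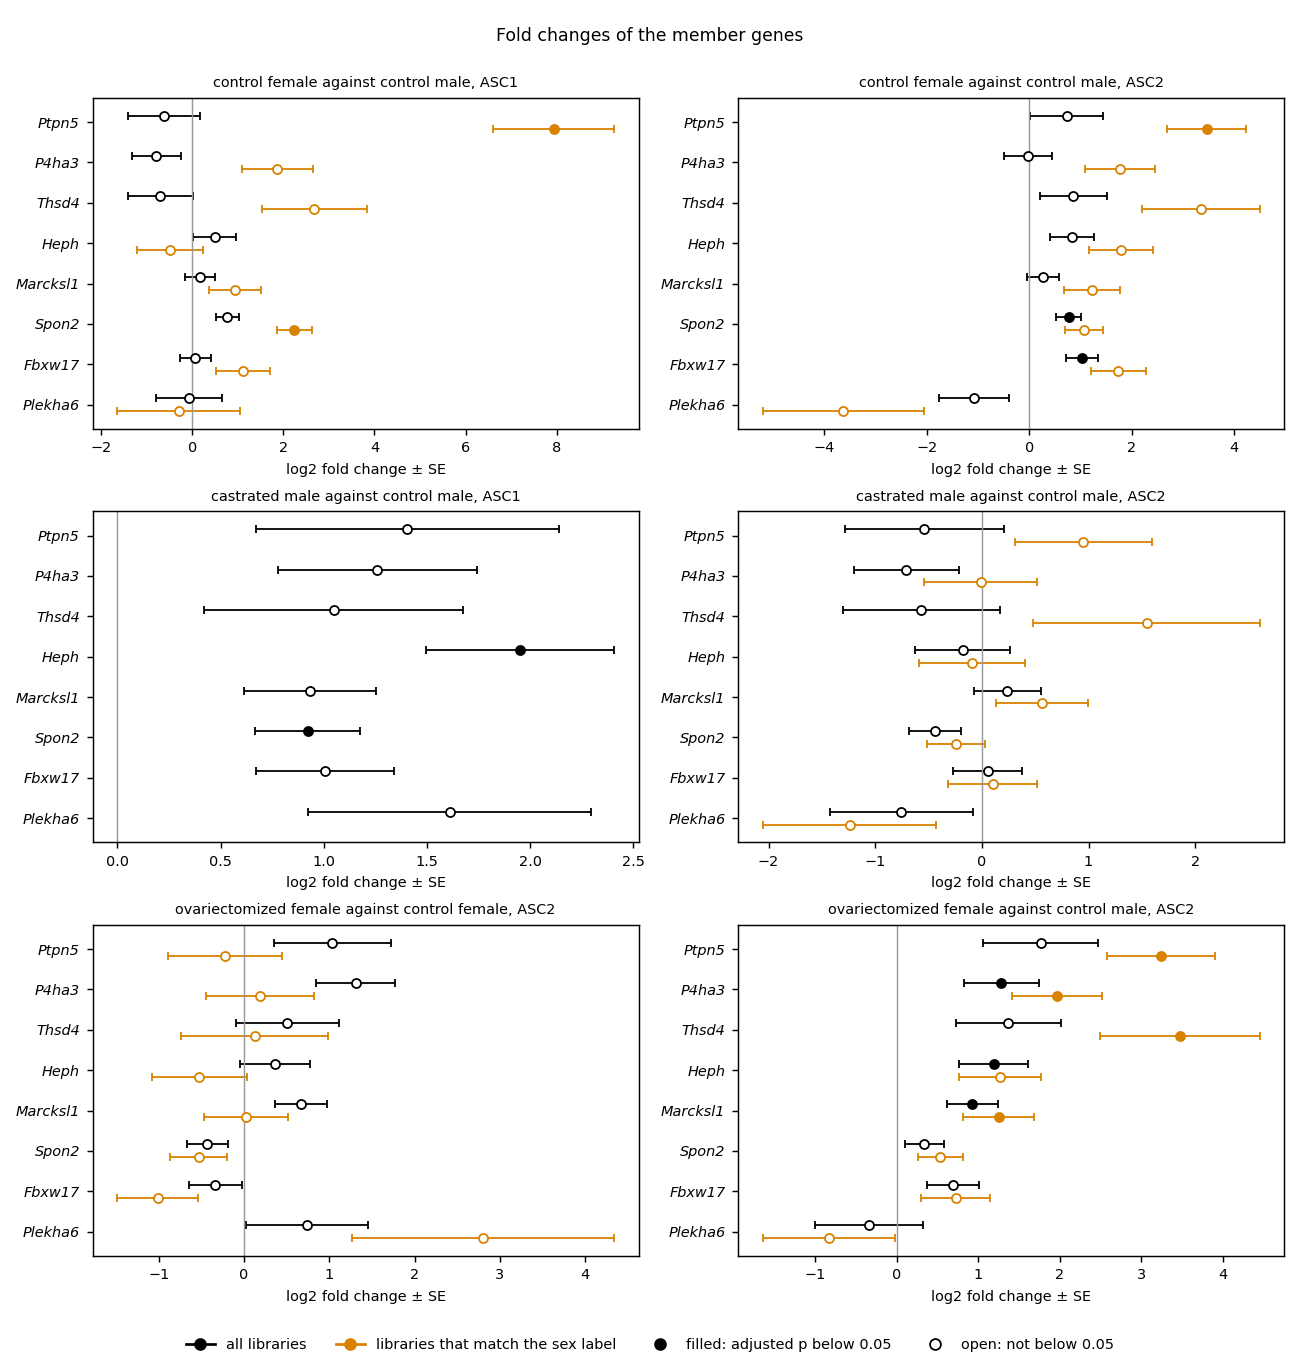
Log2 fold change ± SE of the 8 members in 6 comparisons, from all libraries (black) and from those whose sex chromosome reads match the label (orange), with filled points where the edgeR adjusted p is below 0.05. In control females against control males, Ptpn5 moves from -0.62 to 7.93 in ASC1 and from 0.73 to 3.47 in ASC2, and no orange points exist for castrated male ASC1, where no library matched.

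In castrated against control male ASC1, all 8 members had a fold change above 0, with a median of 1.15 on the log2 scale beside -0.01 over all genes, and 2 of 8 were called, against 2.36% of all genes. Heph rose by 1.95 ± 0.46 (edgeR adjusted p = 0.00811, 3.87-fold) and Spon2 rose by 0.92 ± 0.26 (edgeR adjusted p = 0.0328, 1.9-fold). In all, 6 of 8 members had an unadjusted p below 0.05, among them P4ha3 at 1.26 ± 0.48 and Fbxw17 at 1.01 ± 0.33. How many of all genes pass that unadjusted threshold was not counted. Ptpn5 had 1.41 ± 0.73 (95% interval -0.03 to 2.84). Heph kept its call when any 1 of the 15 libraries was left out, but it was not called by an exact permutation test, and Spon2 lost its call in 9 of 15 cases (castrated male K to P, control male B to D, edgeR adjusted p 0.057 to 0.122). None of the 8 castrated male ASC1 libraries matched the label male by sex chromosome reads, so no value can be given for matching libraries. Without libraries with at least 3 Tcf21 reads, an alternative added after the data had been seen that leaves 2 castrated and 4 control libraries, 0 of 8 members were called, as for 0% of all genes. Heph was then at -1.01 ± 0.67 and Spon2 at -0.11 ± 0.29 (edgeR adjusted p = 1 for both). In castrated male ASC1 the 8 mural markers summed to 719 to 2530 CPM against 827 to 1340 CPM in control males, with all 8 markers present in both. The 3 mesothelial markers, also present in both, summed to 6.38 to 90.3 CPM (median 64.5) in castrated and 8.72 to 19.9 CPM (median 11.1) in control males. The part of such cells in these results was not tested.

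In ASC2, 0 of 8 members were called in castrated against control males, beside 6.96% of all genes, and 0 of 8 had an unadjusted p below 0.05. DESeq2 called 0 as well. Only Marcksl1 (0.24 ± 0.32) and Fbxw17 (0.05 ± 0.32) had values above 0, while Ptpn5 was at -0.54 ± 0.75 with a 95% interval of -2 to 0.92. Restricted to libraries that match the label, 8 against 4, the count was again 0, against 6.31% of all genes, with Ptpn5 at 0.95 ± 0.64. The castration effect differed between the populations for 1 of 8 members, against 2.41% of all genes. The Spon2 difference between castrated and control males was lower in ASC2 than in ASC1 (-1.36 ± 0.35 log2, edgeR adjusted p = 0.0186), where its castration values were -0.44 ± 0.24 in ASC2 and 0.92 ± 0.26 in ASC1. This call was lost without control male ASC1 B, C or D (edgeR adjusted p 0.0513 to 0.0591). Without libraries with Tcf21 reads it was at -0.08 ± 0.34 and 0 members were called, as for 0% of all genes. None of the 8 castrated male ASC1 libraries matched the label male by sex chromosome reads, while all 8 castrated male ASC2 libraries did. In the castrated libraries, sex chromosome reads and population thus cannot be told apart, and no value for matching libraries can be given.

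Ovariectomy was compared with control females. In ASC2, 0 of 8 members were called, against 2.09% of all genes, and 2 had an unadjusted p below 0.05, P4ha3 at 1.31 ± 0.46 (edgeR adjusted p = 0.135) and Marcksl1 at 0.66 ± 0.31 (adjusted p = 0.317). DESeq2 called 0 members. Ptpn5 was at 1.03 ± 0.69 with a 95% interval of -0.31 to 2.38. With label-matching libraries, 8 against 2, 0 of 8 were called, against 0.0169% of all genes. Ptpn5 was then at -0.23 ± 0.67 and P4ha3 at 0.19 ± 0.63. In ASC1, 2 of 8 members were called lower in the 3 ovariectomized libraries, in a comparison in which 34.8% of all genes were called and the median of all genes was -0.34. Heph fell from 12.9 to 50.8 CPM to 0 to 4.57 CPM (-3.36 ± 1.05, edgeR adjusted p = 0.0101) and Marcksl1 from 10.9 to 39.4 CPM to 0 to 6.19 CPM (edgeR adjusted p = 0.000646). These 2 did not overlap between the groups, like 20.9% of all genes. Marcksl1 rested on 2 reads against 88, a ratio of CPM 11.6-fold lower (95% counting interval 3.13 to 97.6). Ptpn5, with 1 read against 166, was 43.9-fold lower (7.77 to 1740) but was not called (edgeR adjusted p = 0.0645). It had no read in 4 of the 8 control female libraries. These intervals leave out the spread between libraries. The calls of Heph and Marcksl1 were lost without ovariectomized library L. Marcksl1 was then at -2.78 (edgeR adjusted p = 0.0595), and Heph, with 0 reads in both libraries left, at a fitted -7.48 that depends on the prior count (adjusted p = 0.0511). With the 3 control female libraries that match the label, 3 of 8 members were called lower, Ptpn5 (1 read against 164, 130-fold lower, 95% counting interval 23 to 5160), P4ha3 (-3.89 ± 1.13) and Marcksl1 (-3.82 ± 0.91), against 27.7% of all genes, and Heph was at -2.78 ± 1.11 (edgeR adjusted p = 0.0574).

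Castrated males were also set against control females, with the same control female libraries as above. In ASC1, 1 of 8 members was called, against 2.07% of all genes: P4ha3 rose by 2.05 ± 0.51 (edgeR adjusted p = 0.0179, 4.13-fold), a call lost without control female G or H (edgeR adjusted p 0.0507 to 0.055). All 8 members had values above 0, and 7 had an unadjusted p below 0.05, including Ptpn5 at 2.02 ± 0.76. The share of all genes at that unadjusted threshold was not counted. None of the 8 castrated male ASC1 libraries matched its label by sex chromosome reads, and 5 of the 8 control female ones (B, C, D, G and H) had Y reads only. By these reads the ASC1 comparison is not one of males with females, and no value for matching libraries can be given. Without libraries with at least 3 Tcf21 reads, 2 against 3, P4ha3 was at 0.18 ± 0.75 and 0 members were called, as for 0% of all genes. In ASC2, 1 of 8 members was called, against 1.41% of all genes, and that member was Spon2 (-1.21 ± 0.24, edgeR adjusted p = 0.00249). The Spon2 groups did not overlap, a separation seen in 0.104% of all genes, and no single library left out ended the call. With libraries that match the label, 8 against 2, Ptpn5 (-2.52 ± 0.63, edgeR adjusted p = 0.0346, 0 to 71.8 against 201 and 213 CPM) and Spon2 (-1.31 ± 0.32, adjusted p = 0.0317) were called, against 1.42% of all genes, and 5 of 8 members did not overlap between the groups, against 11.5%. Both of these control females and 2 of the 8 castrated males had at least 3 Tcf21 reads. No matching control female under that cut-off was left, so the part of Tcf21 in this subset was not tested.

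Ovariectomized females against control males, a comparison that shares the control male libraries with those above, gave 3 members called in ASC2 and 4 in ASC1. In ASC2, 3 of 8 were higher, against 18.3% of all genes: P4ha3 rose by 1.28 ± 0.46 (edgeR adjusted p = 0.0423), Heph rose by 1.19 ± 0.42 (adjusted p = 0.0394) and Marcksl1 rose by 0.93 ± 0.31 (adjusted p = 0.0277). Ptpn5 had the largest value, 1.76 ± 0.71 (95% interval 0.38 to 3.15), with an edgeR adjusted p of 0.0721. With 1 of 16 libraries left out, P4ha3 lost its call without control male A, B, C, D or F or ovariectomized I, J, K or L (edgeR adjusted p 0.0562 to 0.0968), Heph without control male B, C, D or F or the same 4 ovariectomized libraries (0.0568 to 0.11) and Marcksl1 without control male A, B or C (0.0528 to 0.0646). P4ha3 was not called by DESeq2 nor Heph by the exact permutation test. With label-matching libraries, 8 against 4, 4 of 8 members rose, against 17.1% of all genes: Ptpn5 by 3.24 ± 0.66 (edgeR adjusted p = 0.000763), Thsd4 by 3.47 ± 0.98 (adjusted p = 0.0123), P4ha3 by 1.97 ± 0.55 (adjusted p = 0.012) and Marcksl1 by 1.25 ± 0.43 (adjusted p = 0.0422). Ptpn5 was at 34.3 to 273.5 against 2.23 to 32.5 CPM there, the 1 member of 8 without overlap, against 7.83% of all genes, and Thsd4 rested on 49 reads against 2, a ratio of 14.5 (95% counting interval 3.81 to 123). Without libraries with Tcf21 reads, 4 against 8, 0 of 8 were called, against 6.86% of all genes, with Ptpn5 at 0.79 ± 0.47 and Heph at -0.55 ± 0.45. Marker lists of other cells also moved with this comparison: mural markers summed to 1330 to 3650 CPM in ovariectomized females and 138 to 1170 CPM in control males (8 and 7 of 8 present, Higd1b at 0 in the males), and epithelial markers to 13.2 to 1290 and 0 to 136 CPM (6 and 5 of 6 present, Krt5 at 0 in the males). Their part in the result was not tested.

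In ASC1, 4 of 8 members were lower in the 3 ovariectomized female libraries than in control males, against 35.6% of all genes. These were Ptpn5 (1 against 333 reads, 75.2-fold lower, 95% counting interval 13.4 to 2980, edgeR adjusted p = 0.0304), P4ha3 (-3.62 ± 1.18, adjusted p = 0.0128), Heph (-2.87 ± 1.08, adjusted p = 0.0317) and Marcksl1 (2 against 94 reads, 10.6-fold lower, 2.86 to 89.0, adjusted p = 0.00124). Heph and Marcksl1 did not overlap between the groups, like 26.9% of all genes. Leaving out ovariectomized library L ended all 4 calls, N or P those of Ptpn5 and Heph, and control male D that of Heph (edgeR adjusted p 0.0514 to 0.199), and the exact permutation test did not call Ptpn5. Without L, P4ha3 was at -2.49 and Marcksl1 at -2.60, while Ptpn5 (-8.48) and Heph (-6.98) had 0 reads in both ovariectomized libraries left, so that their fitted values depend on the prior count. Against the 3 control male libraries that match the label, 3 of 8 were called, against 26.5% of all genes: Heph (-3.27 ± 1.03) and Marcksl1 (-2.88 ± 0.93) were lower and Spon2 (1.86 ± 0.39, 258 to 371.5 against 66.2 to 110.5 CPM) higher. Ptpn5 had 1 read on either side there, which gives no ratio. All 3 of these male libraries and none of the 3 ovariectomized female ones had at least 3 Tcf21 reads, so the labelled groups and Tcf21 cannot be told apart in this subset.

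ASC2 and ASC1 differed in 1 member in each sex. Spon2 rose by 0.75 ± 0.25 in control male ASC2 (edgeR adjusted p = 0.0409), 1 of 8 members against 12.2% of all genes, and rose by 0.75 ± 0.24 in control female ASC2 (adjusted p = 0.0495), 1 of 8 against 6.11%. In females the Spon2 groups did not overlap, a separation seen in 1.13% of all genes. The male call was lost without ASC1 library B, C or D or ASC2 library B, E, F or G (edgeR adjusted p 0.0644 to 0.128). The female call was lost in 12 of 16 cases, and held without ASC1 library E or F or ASC2 library A or B (edgeR adjusted p 0.0502 to 0.124 where lost). DESeq2 did not call the female one. With label-matching libraries, 2 of 8 members were called in males, against 8.04% of all genes: Spon2 (1.67 ± 0.36, edgeR adjusted p = 0.00381) and Ptpn5 (adjusted p = 0.0263), the latter from 60 reads in 4 ASC2 and 1 read in 3 ASC1 libraries, a 50.7-fold ratio with a 95% counting interval of 8.76 to 2040. All 3 of these male ASC1 libraries and none of the 4 ASC2 libraries had at least 3 Tcf21 reads, so population and Tcf21 cannot be told apart there. In females, 2 ASC2 against 3 ASC1 libraries, 0 of 8 were called, against 0.759% of all genes. There both ASC2 libraries and none of the 3 ASC1 libraries had at least 3 Tcf21 reads.

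The members were also compared with each other across libraries. Over the 58 libraries, Pearson's r of log2(CPM + 1) was 0.78 between Ptpn5 and P4ha3, 0.73 between P4ha3 and Marcksl1 and 0.69 between Heph and Fbxw17, and Plekha6 had r of 0.05 to 0.24 with every other member. For deviations from the 8 group means, r was 0.68 between Ptpn5 and P4ha3, 0.69 between Ptpn5 and Spon2 and 0.09 between Ptpn5 and Heph. These libraries share groups, depth and the sex chromosome classes, so the correlations are descriptions only.

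**Figure D4:**
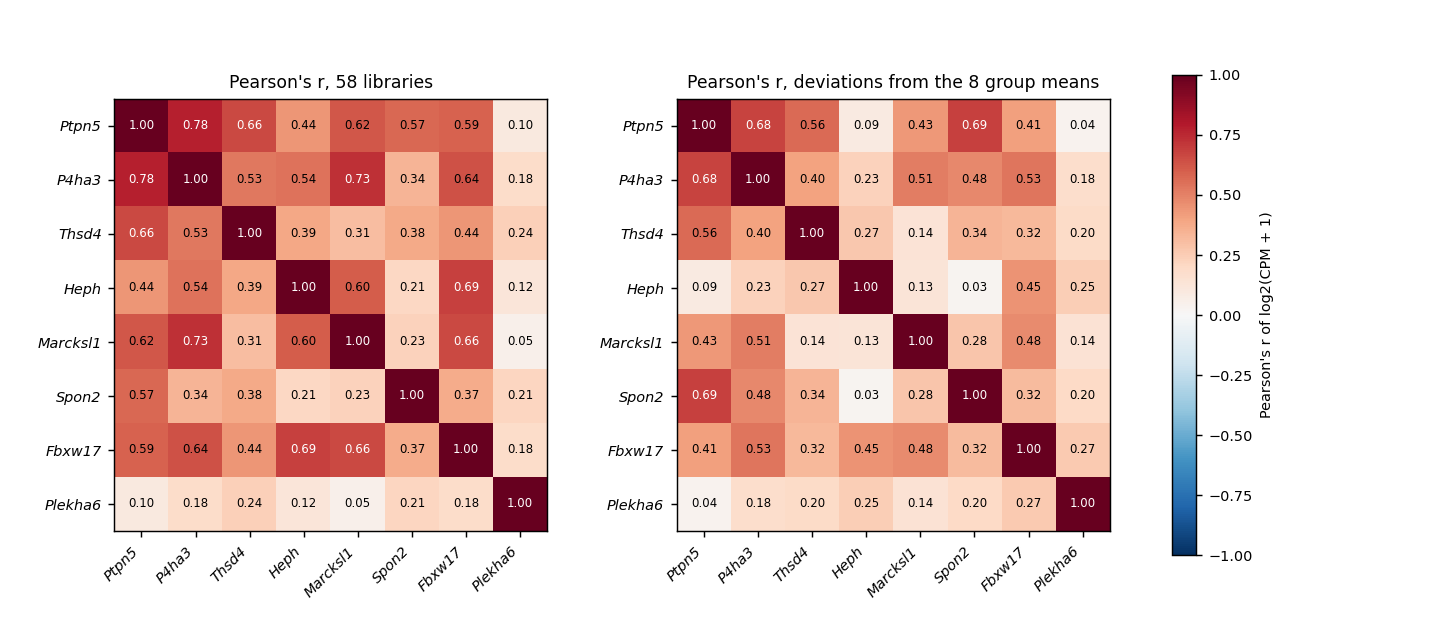
Pearson's r between the 8 members on the log2(CPM + 1) scale, over the 58 libraries (left) and for deviations from the 8 group means (right), on a colour scale from -1 to 1. Ptpn5 and P4ha3 keep an r of 0.78 and 0.68, Ptpn5 and Heph go from 0.44 to 0.09, and Plekha6 is pale throughout.

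Among genes with a mean of at least 5 CPM, those most like Ptpn5 over the 58 libraries were Thbs2 (r = 0.90), which encodes the matrix protein thrombospondin 2, Greb1 (r = 0.90), a gene known for its induction by estrogen, and Slco5a1 (r = 0.87). P4ha3 was most like Chst11 (0.86), a chondroitin sulfotransferase gene, Thbs2 (0.84) and Slco5a1 (0.82). Heph was most like Ctla2a (0.83), the growth factor gene Fgf2 (0.82) and Me1 (0.81), Marcksl1 most like Ppme1 (0.82), Dcbld2 (0.82) and Akap2 (0.81), and Fbxw17 most like Pi15 (0.78), Pla1a (0.77) and Dcbld2 (0.76). Thsd4 was most like Xist (0.68), Ptpn5 (0.66) and Greb1 (0.64), Spon2 most like the gap junction gene Gja1 (0.66), Peg3 (0.61) and Xist (0.59), and Plekha6 most like Mfap3 (0.55), Mitf (0.48) and Sos2 (0.48). Ptpn5 had an r of 0.79 with the progesterone receptor gene Pgr and 0.58 with Xist.

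The 4 other female-enriched core genes tested, Akr1c14, Pgr, Xist and Il4ra, were chosen by the study and are no independent evidence of direction. Akr1c14, a hydroxysteroid dehydrogenase gene, averaged 20.1 ± 8.78 CPM in control male ASC2 and 157 ± 136 CPM in control female ASC2 and rose by 2.90 ± 0.40 (edgeR adjusted p = 2.14e-06). It rose by 2.82 ± 0.51 in castrated against control male ASC1 (adjusted p = 0.000313) and fell by 3.10 in castrated male against control female ASC2 (SE 0.41, adjusted p = 1.08e-06). Pgr averaged 3.12 ± 4.35 CPM in control female ASC1 and 40.7 ± 20.8 CPM in castrated male ASC1 and rose by 4.10 ± 0.79 (adjusted p = 0.00136). The estrogen receptor gene Esr1 averaged 11.2 to 39.7 CPM outside ovariectomized female ASC1, where it averaged 144 CPM. These values are from all libraries, none of the 8 castrated male ASC1 libraries matching its sex label. With label-matching libraries, Akr1c14 was at 2.85 ± 0.52 in control female against control male ASC2 (adjusted p = 0.00234) and at -3.29 ± 0.44 in castrated male against control female ASC2 (adjusted p = 2.56e-05). Without Tcf21 libraries the castrated male ASC1 calls were lost, with Akr1c14 at 0.64 ± 0.80 against control males and Pgr at 0.80 ± 0.89 against control females (edgeR adjusted p = 1 for both).

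Genes that work with the members were counted from pathway lists, in all libraries where nothing else is said. Of 12 tested genes of collagen prolyl and lysyl hydroxylation, the pathway of P4ha3, 3 were higher in control female than control male ASC2 (Plod2 at 2.49 ± 0.70, P4hb at 0.54 ± 0.16, Ppib at 0.47 ± 0.12) and none lower, against 6.5% of all genes, with a list median of 0.28 beside 0.002 over all genes. The count was 2 higher with label-matching libraries and 0 without Tcf21 libraries. In ovariectomized female against control male ASC2, 6 were higher and none lower, against 18.3% of all genes (median 0.56 beside -0.003), led by Plod2 (3.56 ± 0.69) and P4ha2 (1.30 ± 0.27). Here 4 were higher with label-matching libraries and 0 without Tcf21 libraries. ASC2 was lower than ASC1 for 6 of them in control males and 7 in control females, against 12.2% and 6.11% of all genes, with P3h1 at -1.04 ± 0.27 and -1.08 ± 0.27. These counts fell to 1 and 0 with label-matching libraries and to 2 and 2 without Tcf21 libraries. Of 16 tested genes of iron and copper handling, the setting of Heph, 4 were lower and none higher in castrated than control male ASC1, namely the transferrin gene Trf (-3.17 ± 0.66), Steap4 (-1.83 ± 0.32), the ceruloplasmin gene Cp (-1.73 ± 0.49) and Steap3 (-0.81 ± 0.20), against 2.36% of all genes. Without Tcf21 libraries 0 were called there, as for 0% of all genes. In control female against control male ASC2, 2 were lower, against 6.5% of all genes, including the ferroportin gene Slc40a1 (-1.49 ± 0.48), and the list median was 0.01. In that comparison 0 were lower with label-matching libraries and 0 without Tcf21 libraries, where 1 was higher.

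Of 17 tested genes of fibrillin microfibrils, the setting of Thsd4, 2 were higher and 1 lower in control female than control male ASC2, against 6.5% of all genes, where the elastin gene Eln was at 2.25 ± 0.32, Ltbp4 at 1.94 ± 0.36 and Ltbp1 at -1.39 ± 0.25. With label-matching libraries 3 were higher and 1 lower. In castrated male against control female ASC2, 3 were lower, Eln (-2.41 ± 0.32), Ltbp4 (-2.22 ± 0.38) and Adamtsl1 (-1.22 ± 0.29), and 1 higher, Ltbp2 (2.14 ± 0.59), against 1.41% of all genes. With label-matching libraries 4 were lower and 0 higher, and without Tcf21 libraries 2 and 0. Among 3 tested spondins and R-spondins, Spon1, a relative of Spon2, rose by 3.45 ± 0.60 in control female against control male ASC2 and by 1.93 ± 0.53 in castrated against control male ASC1 and fell by 2.95 in castrated male against control female ASC2 (SE 0.57). With label-matching libraries the ASC2 values were 4.13 ± 0.88 and -3.66 ± 0.69, and without Tcf21 libraries Spon1 was at -0.73 ± 0.86 in castrated against control male ASC1 (edgeR adjusted p = 1). Of 11 tested ERK-directed phosphatases and STEP substrates, the setting of Ptpn5, 1 was called in castrated against control male ASC1, against 2.36% of all genes. It was Ptpn7 at -3.85 ± 0.88, which did not pass the low-count filter without Tcf21 libraries. In control females against control males 0 were called, against 0.289% of all genes in ASC1 and 6.5% in ASC2. Of 10 tested FBXW and SCF ubiquitin ligase genes, 3 MARCKS genes and 7 PLEKHA and PDZD11 genes, 0 were called in control females against control males in either population or in castrated against control male ASC1. The shares of all genes are those just given. In ovariectomized against control female ASC1, where 34.8% of all genes were called, 4 ERK and STEP genes were called. There 2 FBXW and SCF genes, 2 MARCKS genes and 0 PLEKHA and PDZD11 genes were called. Genes of the lists other than PLEKHA and PDZD11 were called in further comparisons too.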

How the data were processed

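Smart-seq3 libraries of bulk-sorted cells were given by the authors as estimated counts per gene: per the methods, adapters were trimmed with NGmerge, and reads with and without molecular identifiers were quantified with Salmon (1.9.0) on Gencode transcripts (GRCm39) and added together. The authors removed libraries with fewer than 8500 genes. Of the deposited values above 0, 15% were not exactly whole, with no tolerance, and all were rounded. Columns were matched to samples by name.

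A gene needed 5 or more reads in each of more than 3 libraries, and genes that passed were tested in R (4.3.3) with edgeR (4.0.16), using TMM factors and quasi-likelihood tests with 8 group coefficients and Benjamini-Hochberg adjustment (threshold 0.05). Members at an unadjusted p below 0.05 were counted without the share of all genes at that threshold. Levels are CPM, and log2 levels use a pseudocount of 1 CPM. Libraries were not paired by replicate letter, since no comparison had every correlation of same-lettered deviations above 0.1. In control females against control males of ASC1, 5 of 7 letters were above 0.1, so this rule does not exclude that letters share an effect. Library totals limit the precision of low genes, and intervals of read ratios cover counting error only, while those of log2 fold changes come from the edgeR standard error and include the spread between libraries. DESeq2 (1.42.0), other filters and factors and left-out libraries were alternatives.

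The members and the gene lists were chosen with earlier results of these data known. All 8 members are named. Other genes are named by list, as called genes with the largest changes, and by likeness, as the 3 highest correlations. RefSeq windows are of build GRCm38.p6, not the authors' build. C7, Tcf21, Tbx15, the analyses without Tcf21 libraries, with terms for Tcf21 or sex chromosome reads, without each library, and the gene lists in library subsets were added after the data had been seen.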

Additional observations from a re-analysis of the deposited data

Results flagged for a closer look

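Control female ASC1 replicate A, a library of 139825 reads, was far above the other 7 of its group in 4 members: Ptpn5 at 242.7 CPM (37 reads, nearest library 106.2 CPM), P4ha3 at 137.8 CPM (21 reads, nearest 32.06), Marcksl1 at 39.36 CPM (6 reads, nearest 22.48) and Fbxw17 at 111.5 CPM (17 reads, nearest 52.97). Thsd4 was far above in control female ASC1 replicate F, at 14.03 CPM from 7 reads (nearest 6.423). Fbxw17 was far above in control male ASC2 replicate E, at 58.63 CPM from 83 reads (nearest 45.43). Plekha6 was far above in castrated male ASC1 replicate O, at 36.62 CPM from 11 reads (nearest 15.97). These are 7 of 56 groups of values compared by Dixon's ratio, where chance flags about 1 in 20.

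The castration effect on Spon2 differed between ASC2 and ASC1 by -1.363 on the log2 scale (SE 0.35, edgeR adjusted p = 0.0186), with the values and the left-out libraries given with that comparison above. None of the 8 castrated male ASC1 libraries matched its sex label, so no value for matching libraries can be given.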

How the results depend on the processing

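Of 8 members, the number called in each comparison changed with the processing as follows. Control females against control males, ASC1 (0 called): 1 by the exact permutation test and 2 without libraries against the sex label. The same in ASC2 (2): 0 with sex chromosome reads as a term, and 1 each with a Tcf21 term, without Tcf21 libraries, without libraries against the sex label and with the replicate block. Castrated against control males, ASC1 (2): 5 by the permutation test, 4 with no filter, 0 with the sex chromosome term and 0 without Tcf21 libraries. In ASC2 (0) the permutation test called 1. Ovariectomized against control females, ASC1 (2): 5 by DESeq2 and with the sex chromosome term, and 4 by the permutation test, with no filter and without Tcf21 libraries. In ASC2 (0) the permutation test called 3 and no filter 1. Castrated males against control females, ASC1 (1): 2 by DESeq2, with a Tcf21 term and with only the groups compared, 3 with no filter, 5 by the permutation test, and 0 with the sex chromosome term and without Tcf21 libraries. In ASC2 (1): 4 by the permutation test, 2 with no filter, 2 without libraries against the sex label and 0 with the sex chromosome term. Ovariectomized females against control males, ASC2 (3): 0 with the sex chromosome term and 0 without Tcf21 libraries. ASC2 against ASC1 in control males (1): 0 with only the groups compared and without Tcf21 libraries, and 2 without libraries against the sex label. In control females (1): 0 by DESeq2, with RLE size factors, with the sex chromosome term, without libraries against the sex label and without Tcf21 libraries, 2 with a Tcf21 term, filterByExpr and no filter, and 4 by the permutation test. The castration effect in ASC2 minus ASC1 (1): 0 with only the groups compared, the sex chromosome term and without Tcf21 libraries, 2 by DESeq2, with RLE size factors and a Tcf21 term, and 3 with no filter. The permutation test counts unadjusted p-values and was run for the members only, so no share of all genes exists for it. The other counts in this paragraph are also given without the share of all genes. The cause of these changes was not tested. The terms for sex chromosome and Tcf21 reads and the removal of Tcf21 libraries were chosen after seeing the data.

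With 1 library left out, chosen after seeing the data for the libraries taken singly, the counts ranged from 0 to 0 in control females against males of ASC1 and 0 to 2 in ASC2, 1 to 3 and 0 to 0 in castrated against control males, 0 to 3 and 0 to 0 in ovariectomized against control females, 0 to 3 and 1 to 1 in castrated males against control females, 0 to 5 and 0 to 4 in ovariectomized females against control males, 0 to 1 in ASC2 against ASC1 of males and 0 to 2 of females, 0 to 2 for the difference in castration effect and 0 to 0 for the difference in sex effect.

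Direction reversed without libraries against the sex label for Ptpn5 in control females against males of ASC1 (7.93 on the log2 scale), ovariectomized females against control males of ASC1 (0.808, edgeR adjusted p = 0.863) and ASC2 against ASC1 of control males (5.047). It reversed without Tcf21 libraries for Heph (-1.006) and Spon2 (-0.108) in castrated against control male ASC1 and for Heph in ovariectomized females against control males of ASC2 (-0.545). Of 3039 fold changes of single members, 2750 kept their side of the threshold. These either kept their direction or, where uncalled, changed sign with a shift below the standard error. In all, 163 uncalled values changed sign.

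Replicate letters are shared by control males and females and by ASC1 and ASC2 of one condition. With the replicate block, the members called were 0 and 1 in control females against males of ASC1 and ASC2 (Fbxw17 lost its call), 1 and 1 in ASC2 against ASC1 of males and females, 1 for the difference in castration effect and 0 for that in sex effect. In control females against males of ASC1, 5 of 7 letters correlated best with their own letter, a hint from the data and not the design. No paired analysis was possible for castrated or ovariectomized against control libraries because operated and control libraries share no letter. Without libraries against the sex label, castrated male ASC1 has no library left and gave no value. Low totals limit Thsd4 and Plekha6 most, with at most 16 reads in a library.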
